A study of Mus musculus with 14 samples.

Results

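The chromatin and the mRNA of the scr control cells were described gene by gene, by grouping gene loci by the histone marks found on them. The members are 18453 protein-coding genes, the symbols with a single mm9 locus on chromosomes 1 to 19 or X, of 35640 gene loci listed. Each gene was placed in 1 of 8 combinations according to whether a deposited scr peak of H3K4me3, H3K27me3 or H3K9me3 covered at least 1 bp of its locus. The cells are a mouse line that the labels call LEPC, of strain C57BL/6, at 3 passages and grown in serum-containing DMEM. All groups share these features, and they differ in genotype: scr, overexpression of miR-93-5p, or overexpression of a mutant form of that microRNA. The labels do not say what the scr cells carry, nor from which tissue or how many clones the line came. Of the 14 samples of the series, 4 scr samples were used here (H3K4me3, H3K27me3, H3K9me3 and RNA-seq), and the miR-93-5p and mutant lists only where named. Each group is 1 library, so no difference below has a replicate error or a test, and a spread over genes is not an error of the condition.

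Trimethylation of histone H3 at lysine 4 marks active or poised promoters and is laid down by SET1 and MLL complexes. H3K27me3 is written by Polycomb repressive complex 2 and covers silent developmental and lineage genes, and where it meets H3K4me3 the promoter is called bivalent. H3K9me3 is written by SUV39H and SETDB1 enzymes, binds HP1 proteins and covers heterochromatin, repeats, zinc finger gene clusters and imprinted control regions. In liver epithelium, hepatocyte genes such as Alb depend on HNF4A, FOXA and C/EBP factors, while biliary and progenitor cells carry keratins 7 and 19, SOX9 and EPCAM.

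The promoters below show the range of sequence under these states, with every CpG in capitals because CpG content differed between the combinations. They come from the RefSeq promoter table (build GRCm38.p6, not the mm9 build of the peaks), run from 250 bases before to 50 bases after the gene start, and were matched by symbol. Vim (chr2:13574061-13574360, plus strand), the intermediate filament gene of mesenchymal cells, and Krt8 (chr15:102004293-102004592, minus strand), the keratin of simple epithelia, carried H3K4me3 alone and had the highest FPKM among the identity genes. Cdkn2a (chr4:89294570-89294869, minus strand), which encodes the cell cycle brakes p16 and p19, and Col1a2 (chr6:4505368-4505667, plus strand), a chain of type I collagen, carried no mark. Alb (chr5:90460620-90460919, plus strand), serum albumin, carried H3K27me3 alone, and Nkx6-2 (chr7:139582748-139583047, minus strand), a homeobox gene of the nervous system, carried H3K9me3 alone. The last pair was chosen after their values were seen.
Vim: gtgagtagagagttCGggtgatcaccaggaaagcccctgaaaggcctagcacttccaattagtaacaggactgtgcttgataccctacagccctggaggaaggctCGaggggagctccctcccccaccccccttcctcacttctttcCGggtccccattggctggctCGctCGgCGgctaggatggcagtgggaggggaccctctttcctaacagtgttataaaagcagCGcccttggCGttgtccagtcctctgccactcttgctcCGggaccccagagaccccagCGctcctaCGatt
Krt8: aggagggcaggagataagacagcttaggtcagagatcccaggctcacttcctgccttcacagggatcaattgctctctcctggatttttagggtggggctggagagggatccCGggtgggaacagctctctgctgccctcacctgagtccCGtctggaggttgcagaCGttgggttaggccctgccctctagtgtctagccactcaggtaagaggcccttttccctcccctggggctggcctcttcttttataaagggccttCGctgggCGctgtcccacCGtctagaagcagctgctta
Cdkn2a: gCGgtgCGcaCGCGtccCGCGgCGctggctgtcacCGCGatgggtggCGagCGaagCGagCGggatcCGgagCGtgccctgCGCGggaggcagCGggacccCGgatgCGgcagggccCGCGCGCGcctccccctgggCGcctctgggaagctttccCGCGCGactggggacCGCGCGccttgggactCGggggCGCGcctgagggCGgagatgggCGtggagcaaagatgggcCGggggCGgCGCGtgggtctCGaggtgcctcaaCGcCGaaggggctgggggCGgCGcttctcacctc
Col1a2: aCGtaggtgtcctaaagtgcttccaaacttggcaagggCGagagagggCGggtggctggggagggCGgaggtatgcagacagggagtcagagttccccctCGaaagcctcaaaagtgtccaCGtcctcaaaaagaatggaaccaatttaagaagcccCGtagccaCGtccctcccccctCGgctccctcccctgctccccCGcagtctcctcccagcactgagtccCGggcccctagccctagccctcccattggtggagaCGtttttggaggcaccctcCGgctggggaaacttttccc
Alb: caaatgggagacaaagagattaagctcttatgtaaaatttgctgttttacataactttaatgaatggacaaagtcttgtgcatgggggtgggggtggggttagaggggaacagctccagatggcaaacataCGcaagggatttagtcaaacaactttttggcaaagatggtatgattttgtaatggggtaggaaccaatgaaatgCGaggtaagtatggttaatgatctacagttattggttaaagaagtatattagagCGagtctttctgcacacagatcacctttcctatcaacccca
Nkx6-2: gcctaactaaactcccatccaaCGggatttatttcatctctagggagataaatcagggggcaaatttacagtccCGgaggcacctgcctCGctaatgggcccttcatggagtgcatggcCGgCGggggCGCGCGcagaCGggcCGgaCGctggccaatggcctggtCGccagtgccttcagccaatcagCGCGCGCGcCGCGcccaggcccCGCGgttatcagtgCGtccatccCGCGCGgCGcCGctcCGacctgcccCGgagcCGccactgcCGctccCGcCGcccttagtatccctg
These stretches held 11 CpGs in Vim, 6 in Krt8, 45 in Cdkn2a, 13 in Col1a2, 3 in Alb and 32 in Nkx6-2. The most expressed promoters of the set, Vim and Krt8, were thus not the richest in CpG, and the richest, Cdkn2a, lay at a gene with no mark and no RNA-seq locus.

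H3K4me3 alone was the largest group, with 8010 genes (43.4%), followed by 4803 genes with no mark (26%) and 2125 with H3K27me3 alone (11.5%). H3K4me3 with H3K9me3 covered 1384 genes (7.5%), H3K4me3 with H3K27me3 672 (3.64%), H3K27me3 with H3K9me3 628 (3.4%), H3K9me3 alone 496 (2.69%) and all 3 marks together 335 (1.82%). Over all genes, 56.4% had H3K4me3, 20.4% had H3K27me3 and 15.4% had H3K9me3. The combination says that peaks of each mark lie somewhere in the same locus, not that they lie on the same bases or in the same cells.

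The marks sat in different places. The 14595 H3K4me3 peaks had a median width of 2377 bp, and 93.9% of the genes with this mark had it within 1000 bp of an end of the locus. The 44412 H3K27me3 peaks were narrower, at a median of 1049 bp, and 661 genes were at least 50% covered by them. Within 1000 bp of an end, 63.2% of the H3K27me3 genes had a peak. Of the genes with H3K9me3, 28.8% had a peak near an end and 71.2% only inside the locus. The 15888 H3K9me3 peaks (median width 1138 bp) covered a median of 2.55% of the loci they touched, against 7.47% for H3K4me3 and 13.8% for H3K27me3. No strand is given for the loci, so the promoter end could not be told from the other end.

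Genes with H3K9me3 beside another mark were long. The median locus was 81362 bp for H3K4me3 with H3K9me3 and 118045 bp for all 3 marks, against 19974 bp for H3K4me3 alone and 6013 bp for no mark. With H3K27me3 and H3K9me3 it was 63522 bp, with H3K4me3 and H3K27me3 28420 bp, and with H3K9me3 alone 26707.5 bp. Of the 4614 shortest genes (up to 6553 bp) 4.23% had H3K9me3, and of the 4613 longest (from 47275 bp) 37.9%. For H3K27me3 these shares were 12.4% and 28.0%. Length therefore moves with each combination, and its part in the grouping was not tested beyond the 4 length classes used here.

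The combinations differed in how many genes had an assembled RNA-seq locus. Such a locus was assigned to a gene if neither had a better-overlapping partner and if at least 0.5 of their joint length was shared. A match was found for 49.9% of all genes, for 91.1% of those with H3K4me3 alone and for 87.9% of those with H3K4me3 and H3K9me3. With H3K4me3 and H3K27me3 the share was 36.2%, and with all 3 marks 31.0%. It was 2.68% for H3K27me3 alone, 2.71% for H3K27me3 with H3K9me3, 7.06% for H3K9me3 alone and 5.04% for no mark. No assembled locus at all touched 91.8% of the genes with H3K27me3 alone, 80.2% of those with H3K9me3 alone and 87.1% of those with no mark, against 2.55% with H3K4me3 alone. The remaining genes were overlapped by a locus that was not matched to them, and they have no value of their own.

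FPKM, fragments per kilobase of transcript model scaled to library size, accounts for length and so can be compared between genes. Among matched genes the median was 16.5 FPKM with H3K4me3 alone (quartiles 7.70 to 36.5, 7297 genes) and 11.1 with H3K4me3 and H3K9me3 (5.33 to 22.1, 1217 genes). It was 3.41 with H3K4me3 and H3K27me3 (1.72 to 9.49, 243 genes) and 3.42 with all 3 marks (1.29 to 9.99, 104 genes). The other groups had medians of 1.44 for H3K27me3 alone (57 genes), 1.67 for H3K27me3 with H3K9me3 (17 genes), 1.55 for H3K9me3 alone (35 genes) and 2.38 for no mark (242 genes). The median over all matched genes was 14.4. These medians cover only genes with a locus, and the lowest FPKM among them was 0.448, so the groups with few loci are described mainly by the share without one. When the locus was extended by 1000 bp at each end the median with H3K4me3 and H3K27me3 was 6.08. With only the peaks at or above the median score of each list it was 7.26, the median with all 3 marks was 8.12, and the matched share was 7.10% with H3K27me3 alone and 21.7% with H3K9me3 alone.

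**Figure D1:**
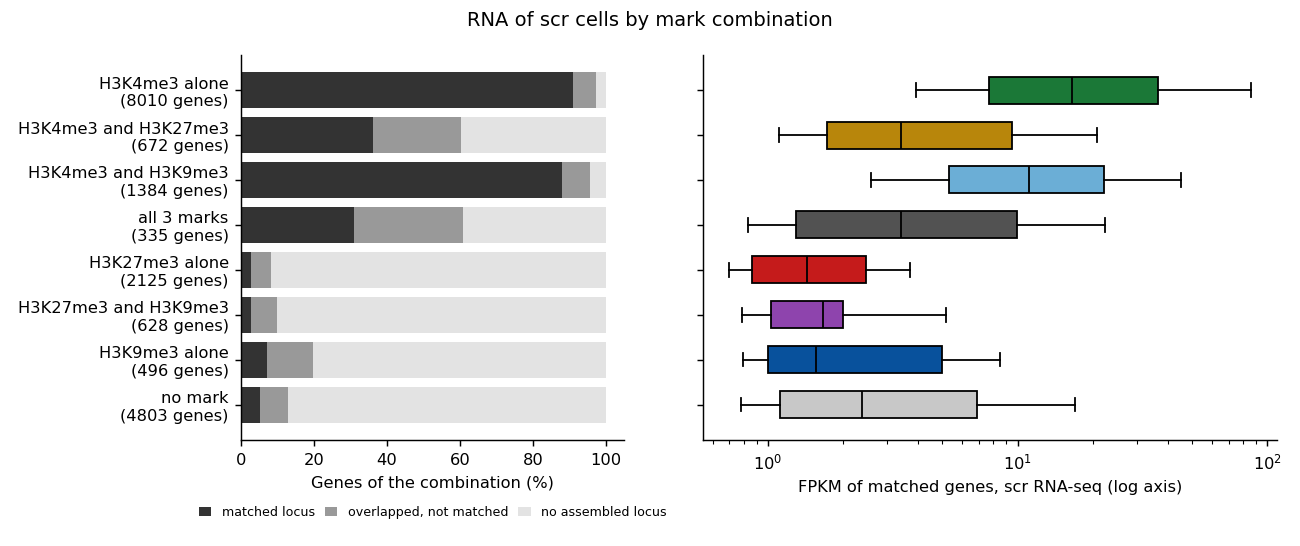
Left, the share (%) of genes of each scr combination with a matched RNA-seq locus, an overlapped but unmatched gene, or no assembled locus. Right, FPKM of matched genes on a log axis, where boxes are quartiles, the line is the median and whiskers run from the 10th to the 90th percentile of genes; the matched share is 91.1% with H3K4me3 alone and 2.68% with H3K27me3 alone.

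Of 5693 genes at 10 FPKM or more, 99.1% had H3K4me3. The 52 without it included Traf7, a ubiquitin ligase gene (152 FPKM, with deposited lower and upper bounds of 147 and 157 that cover this library only), Sprr1a, a cornified envelope protein (96.1), Lgals2, a galectin (91.2), Ptgds, prostaglandin D synthase (76.9), and Ide, insulin-degrading enzyme (52.99), all in the group with no mark. For 5 of the 52 an H3K4me3 peak lay within 1000 bp outside the locus and for 16 within 5000 bp. Sprr1a and Lgals2 had H3K4me3 in the miR-93-5p list, and Traf7, Ptgds and Ide had no mark there either.

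FPKM was also higher under wider H3K4me3 peaks. Genes were ranked by their widest H3K4me3 peak and cut into 4 classes. In the narrowest class (2601 genes, 366 to 2227 bp) 69.2% had a matched locus, with a median of 7.83 FPKM. The next classes had medians of 14.4 and 16.8, and the widest (2600 genes, 3547 to 24041 bp) had 21.4 FPKM and 90.4% matched. The widest H3K4me3 peak, 24041 bp, lay on chromosome 19 over the noncoding RNA gene Neat1 and the neighbouring Frmd8 (53.9 FPKM), the second, 19281 bp, on chromosome 11 over Hoxb9 (8.77 FPKM), and the third touched no gene analysed here. Of the H3K4me3 peaks 60.3% had a listed score of 3100 or above, so the score could not rank them.

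Genes of growth and of the common cell machinery were mostly in the group with H3K4me3 alone. The 5 highest were Rplp1, a ribosomal stalk protein (4187 FPKM, bounds 4139 to 4235), Fth1, ferritin heavy chain (3565), the glycolytic enzyme Gapdh (3201), the ribosomal protein Rps21 (3092) and the calcium-binding S100a6 (2716). All 24 abundant constitutive genes analysed were in this group, with a median of 668 FPKM over the 23 matched. So were 61 of 64 cytosolic ribosomal proteins (median 1006 FPKM), 70 of 72 mitochondrial ribosomal proteins (47.4), 32 of 34 complex I subunits (107) and all 20 centromere and kinetochore genes (17.7). These counts compare with 43.4% of all genes in the group.

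Cell cycle genes had H3K4me3 in 40 of 40 members, 36 of them with no other mark, and a median of 52.2 FPKM. The cyclin-dependent kinases Cdk4 and Cdk1 stood at 295 and 151 FPKM, the replication clamp Pcna at 154 and the checkpoint gene Mad2l1 at 168. Of the 37 matched members 32 stood at 10 FPKM or more. The lowest was Ccnd2, cyclin D2, with H3K27me3 on 18.9% of the locus and 1.16 FPKM (0.901 to 1.41). Of the cell cycle brakes and p53 pathway genes 18 of 23 had H3K4me3 alone, among them Bax (243 FPKM), Trp53 (98.1), Cdkn1b (40.9) and Cdkn1a (34.5).

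The brakes outside this pattern were Cdkn1c, Cdkn2a and Cdkn2b, which had no assembled RNA-seq locus. Cdkn1c, an imprinted inhibitor of cyclin-dependent kinases, was 85.9% covered by H3K9me3. Cdkn2a (mm9 chromosome 4, 88920377 to 88940557) and its neighbour Cdkn2b had no peak of any mark in either the scr or the miR-93-5p list. The nearest scr peak to Cdkn2a was an H3K9me3 peak at 24.9 kb, while the nearest H3K4me3 peak lay at 131 kb and the nearest H3K27me3 peak at 292 kb. Mtap, the next protein-coding gene on one side, had H3K4me3 with H3K9me3 and 55.8 FPKM. Copy number was not measured, so an absent region and an unmarked silent region cannot be told apart. Cdkn2b and Mtap were named after their values were seen.

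The genes of the chromatin enzymes analysed all had H3K4me3. The mark was present in 18 of 18 genes for H3K4 enzymes, 28 of 28 for Polycomb and H3K27 enzymes and 29 of 29 for H3K9 enzymes and heterochromatin proteins, against 56.4% of all genes. The Polycomb partners Rbbp4 and Rbbp7 stood at 161 and 144 FPKM, the methyltransferase Ezh2 at 54.1 (51.7 to 56.6) and its partner Suz12 at 44.0. The H3K9 corepressor Trim28 stood at 135 (110 to 159), the methyltransferase Ehmt2 at 85.7, Uhrf1 at 82.7 and the HP1 gene Cbx1 at 64.2. Phf19, a Polycomb-associated Tudor protein, had H3K27me3 on 15.1% of its locus and 2.95 FPKM. The Polycomb reader Cbx7 carried all 3 marks, with 21.8% of the locus under H3K27me3 and 17.5% under H3K9me3, and no matched locus. Cholesterol and fatty acid synthesis had H3K4me3 in 21 of 21 genes, all at 11.4 FPKM or more, led by Fdps (189) and Acly (110).

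Genes of several cell identities were expressed; in these bulk libraries fewer cells of a type and less RNA per cell cannot be told apart. Some epithelial and some mesenchymal genes, named as the highest of their lists or as identity genes, were high: Vim stood at 1061 FPKM (1053 to 1070), Krt8 at 658 (630 to 686), Krt18 at 306 (302 to 310), S100a4 at 433 and Lgals3 at 736, all with H3K4me3 alone. Spp1, osteopontin of biliary and injured liver cells, stood at 531 (507 to 554), Cdh1, E-cadherin, at 30.7 (29.0 to 32.3), and Fn1, fibronectin, at 23.6 (22.7 to 24.5). Cdh1 carried H3K4me3 with H3K9me3 on 7.22% of its locus. The collagen I genes had no FPKM of their own: Col1a1 had H3K4me3 with H3K27me3 on 48.1% of the locus and no matched locus, and Col1a2 had no mark and no assembled locus. Of 24 epithelial genes 15 (62.5%) had H3K4me3 and 17 (70.8%) had a matched locus. Of 29 mesenchymal and matrix genes 15 (51.7%) had H3K4me3 and 12 (41.4%) a matched locus. Over all genes these shares were 56.4% and 49.9%, so the H3K4me3 share of both lists was near that of all genes. The 6 epithelial genes with no assembled locus included Ovol1 (H3K27me3 on 96.7% of the locus), Tjp3 and Esrp1, each with H3K27me3 alone. Grhl2 had H3K27me3 with H3K9me3 and no matched locus, and Itgb4 had H3K27me3 alone and 2.44 FPKM. Among the 13 mesenchymal genes with no assembled locus were Des, desmin, with H3K27me3 on 70.2% of the locus, and the platelet-derived growth factor receptor genes Pdgfra and Pdgfrb, the latter pair named after their values were seen.

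Most hepatocyte transcription factors had H3K4me3, and most hepatocyte secreted and metabolic genes did not. Of 19 factors, 15 (78.9%) had H3K4me3 and 12 had a matched locus. Hnf4a stood at 40.6 FPKM (39.0 to 42.3), Hhex at 37.3, Foxa2 at 20.6 (19.2 to 22.1) and Cebpa at 15.3 (14.4 to 16.3). These 4 were the only factors at 10 FPKM or more. The median over the 12 matched was 4.62 FPKM, and the lowest was 0.795. Another 4 factors had no assembled locus, among them Ppara (all 3 marks, H3K27me3 on 43.0% of the locus) and Nr1i2 (H3K27me3 alone). Cebpa, a gene of 2634 bp, carried H3K4me3 on 47.5% and H3K9me3 on 41.2% of its locus. Of 38 genes for hepatocyte secreted proteins and metabolism, 3 had H3K4me3, namely Apob (29.1 FPKM), the retinol carrier Rbp4 (163) and glutamine synthetase Glul (76.3). Another 16 had H3K27me3 alone and 19 had no mark, and no member had H3K9me3. The shares were 7.89% with H3K4me3 and 42.1% with H3K27me3, against 56.4% and 20.4% of all genes.

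Alb had H3K27me3 on 27.7% of its locus and 1.30 FPKM (0.844 to 1.75). H3K27me3 covered 89.7% of G6pc, 75.4% of Cyp1a2, 72.9% of Asgr1 and 69.2% of Hpd, which serve glucose release, drug oxidation, glycoprotein uptake and tyrosine breakdown, and none of them had an assembled locus. Afp had H3K27me3 on 12.3% and no matched locus. Ttr, the thyroxine carrier, stood at 0.969 FPKM (0.408 to 1.53) with no mark, and Serpina1a, antitrypsin, at 18.3 with no mark. Peaks at or above the median score of each list placed 65.8% of this list in the group with no mark, against 50% with all peaks.

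Biliary and progenitor markers were split. Besides Spp1, Cd24a (133 FPKM) and Sox9 (8.22) had H3K4me3 alone, Bicc1 (37.9) had H3K4me3 with H3K9me3, and Krt19 had H3K4me3 but its locus overlapped an assembled locus without a match. Krt7 stood at 7.27 FPKM with no mark. Epcam had H3K27me3 on 23.0% and 0.840 FPKM (0.503 to 1.18), Onecut3 had H3K4me3 with H3K27me3 on 71.2%, and Cldn7 had H3K9me3 on 81.4% of the locus; the last pair had no assembled locus. The labels name no tissue, and whether these genes were on in the same cells was not measured.

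**Figure D2:**
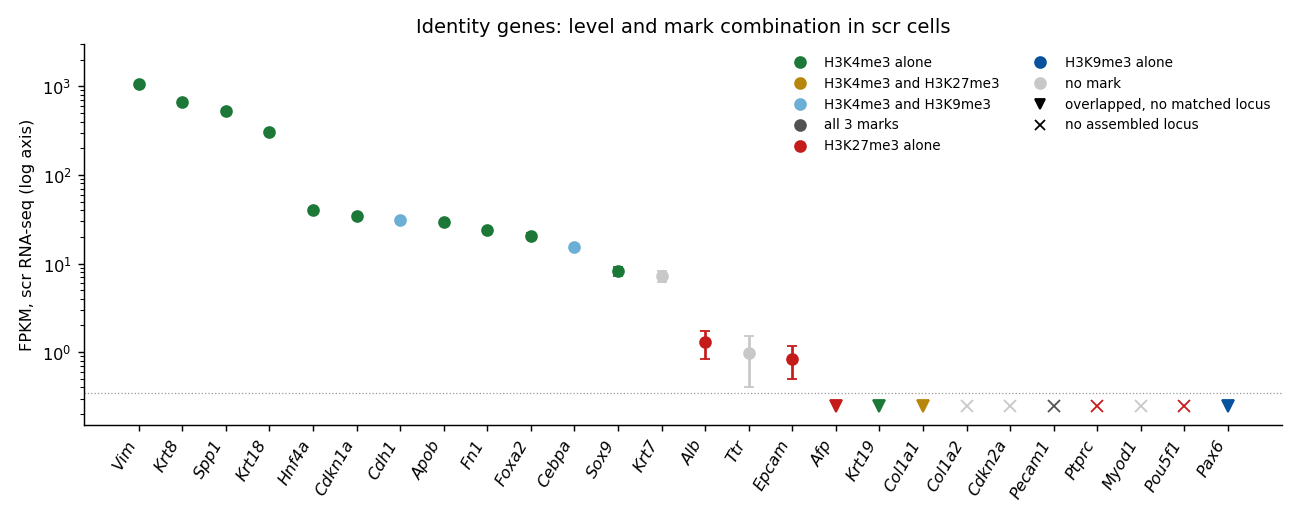
FPKM in the scr RNA-seq library (log axis) of the identity genes, coloured by mark combination, with the deposited lower and upper bounds as bars. Symbols under the dotted line have no FPKM of their own, as a triangle where an assembled locus overlapped the gene and a cross where none did; Vim stands highest at 1061 FPKM and Alb at 1.30.

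Markers of other cell types were checked as the cells the culture could also hold. Of 20 leukocyte markers, 2 had a matched locus, Csf1r at 7.63 FPKM (7.05 to 8.21) and Cd68 at 1.56, and 15 had no assembled locus, Ptprc among them. H3K27me3 without another mark covered 12 of the 20, with 87.9% of Cd4, 61.6% of Cd3e and 60.3% of Cd3g. Of 15 endothelial markers, Flt4 alone was matched (7.09 FPKM), and 10 had H3K27me3, led by Sox18 with 96.5% of its locus. Pecam1 carried all 3 marks and had no assembled locus. Of 18 muscle genes, Tnnt2 alone was matched (15.9 FPKM), and 12 had H3K27me3, led by Actn3 (95.03%) and Nkx2-5 (71.4%). Myod1, the muscle determination factor, had no mark and no assembled locus. The shares with H3K27me3 were 65.0%, 66.7% and 66.7% in these lists, against 20.4% of all genes. Germ line genes had no H3K4me3 and no matched locus in 19 members, and 8 had H3K27me3. Neuronal genes were matched in 1 of 20, Map2 at 2.29 FPKM with no mark, and 10 of 20 (50%) had no mark, against 26% of all genes, and 7 (35%) had H3K27me3.

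Few genes with H3K27me3 and no H3K4me3 had RNA. With H3K27me3 alone the highest was Abcc2, the canalicular export pump of hepatocytes, at 26.2 FPKM (25.03 to 27.4) with 20.5% of the locus covered, the only gene of the group at 10 FPKM or more. Kctd17 (7.95), Ccn5 (5.41), Lrrc32 (5.17) and the histidine-degrading enzyme Hal (5.00) followed. With H3K4me3 and H3K27me3 the highest were Tpm3, a tropomyosin (205), Dpy30, a subunit of the H3K4 methyltransferase complexes (124), the metallothionein Mt2 (70.2), Hagh (69.9) and Uchl1 (50.005). In 4 of these 5 genes H3K27me3 covered between 2.54% and 11.2% of the locus, and in Mt2, a gene of 950 bp, it covered 100% and H3K4me3 84.1%.

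Of the 1007 genes with H3K4me3 and H3K27me3, with or without H3K9me3, 373 (37.0%) had both marks on the same bases. Those had a matched locus in 43.7% (median 3.06 FPKM, 163 genes), and the 634 genes with the marks apart in 29.0% (4.01 FPKM, 184 genes). The shared stretch does not show that 1 molecule carried both marks. H3K4me3 and H3K9me3 shared bases in 141 of 1719 genes (8.20%), and H3K27me3 and H3K9me3 in 191 of 963 (19.8%).

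Signalling genes fell between the groups. Of 46 Wnt and Hedgehog genes, 9 (19.6%) had H3K4me3 with H3K27me3, against 3.64% of all genes, and 23 (50%) had H3K27me3, against 20.4%. The ligand Wnt1 was covered by H3K27me3 over 100% of its locus, Wnt3a over 65.4%, Wnt11 over 62.9% and Wnt9a over 59.4%, and none had an assembled locus. The ligands Wnt10a (35.1 FPKM) and Wnt4 (34.3) and the effectors Ctnnb1 (542) and Axin1 (29.2) had H3K4me3 alone. Among receptors, Fzd8 had H3K4me3 with H3K9me3 on 72.5% of the locus and no assembled locus, and Fzd1 had both with 34.3% under H3K9me3 and 2.23 FPKM. With peaks at or above the median score of each list the share of the list with H3K4me3 and H3K27me3 was 8.70%, and with an overlap of at least 10% of the locus 4.35%.

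TGF-beta and BMP genes had H3K4me3 with H3K9me3 in 10 of 36 (27.8%), against 7.5% of all genes, and 17 had H3K4me3 alone. The BMP targets Id2, Id1 and Id3 stood at 156, 121 and 119 FPKM with H3K4me3 over the whole locus. The ligand Tgfb1 (16.7 FPKM) and the effector Smad3 (14.1) had H3K9me3 on 8.03% and 5.25%. The antagonists Nog and Chrd were covered by H3K27me3 over 100% and 68.1% and had no assembled locus. The share with H3K4me3 and H3K9me3 was 5.56% when only the stretches within 1000 bp of the locus ends were used, and 2.78% with an overlap of at least 10% of the locus. Inflammatory genes had H3K4me3 in 31 of 42 (73.8%, against 56.4% of all genes), with the chemokines Ccl2 (364 FPKM) and Cxcl1 (151) highest, while H3K27me3 covered 30.4% of Il1b and 26.5% of Tnf, which had no assembled locus.

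Among long genes with H3K4me3, FPKM was close with and without H3K9me3. In the longest of the 4 length classes the median was 10.6 FPKM with H3K4me3 and H3K9me3 (841 genes) and 10.9 with H3K4me3 alone (1552 genes). In the third class the values were 14.8 and 16.6 FPKM, in the second 12.5 and 20.3, and in the shortest 3.27 (21 genes) and 25.01 FPKM. The matched share in the longest class was 88.2% and 92.4%. The highest genes of this combination were the tropomyosin Tpm1 (402 FPKM), the tetraspanin Cd9 (401), the chaperonin Hspd1 (336), Cyb5a (326) and Dbi (282), with between 3.31% and 18.02% of the locus under H3K9me3. With all 3 marks the highest were Nt5c2 (67.8), Snd1 (59.2), Pdcd4 (56.5), Gldc (44.4) and Adipor2 (36.8), and their loci spanned 37631 bp to 460024 bp.

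Zinc finger genes carried more H3K9me3 than most. Of 351 genes named Zfp, 118 (33.6%) had the mark, 82 (23.4%) with H3K4me3 and 24 (6.84%) alone, against 15.4%, 7.5% and 2.69% of all genes. With an overlap of at least 10% of the locus the last 2 shares of Zfp genes were 5.70% and 17.1%, and with only stretches within 1000 bp of the locus ends the share with H3K4me3 and H3K9me3 was 14.0%. Zfp genes had H3K4me3 in 261 and a matched locus in 232, with a median of 5.27 FPKM against 14.4 over all matched genes. The H3K9me3 peak with the second highest score, 13271 bp wide on chromosome 5, lay over Zfp12 and Zfp316, and the third lay over Zfp697. The widest H3K9me3 peak, 24738 bp, covered Resf1 on chromosome 6, a gene at 24.8 FPKM with 94.3% of the locus under the mark, and the next widest lay over Zfp943 and Zfp758. H3K9me3 without H3K4me3 did not always mean no RNA: Pla2g7 stood at 16.9 FPKM, the cytokine receptor Il6st at 14.8, Mep1a at 12.6 and Zfp445 at 11.6 with 49.1% of its locus covered.

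Among the gene lists and families described here, developmental transcription factors had the highest share with H3K9me3 alone. The Sox family was close, with 4 of 17 genes (23.5%). For H3K9me3 in any combination, imprinted genes (48.6%), cadherins (47.6%) and Sox factors (47.1%) stood above the developmental factors. Of 97 factors outside the Hox clusters, 26 (26.8%) had H3K9me3 alone, against 2.69% of all genes, and 43 (44.3%) had H3K9me3 in any combination. The loci were short, at a median of 7753 bp, and of all genes of 6557 to 18369 bp, the class that holds this length, 6.66% had H3K9me3. None of the 26 had a matched RNA-seq locus, and 24 had no assembled locus. The mark lay within 1000 bp of a locus end in 21 of the 26 and covered between 3.02% and 95.1% of the locus (median 39.6%). The highest peak score in each gene ran from 54.1 to 640 (median 116). Over single peaks, the median score was 105 for the 54 H3K9me3 peaks touching developmental factors of any combination. It was 83.3 for all H3K9me3 peaks touching the genes analysed and 117 for those touching Zfp genes.

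By name, the 26 were Barx1, Bhlhe22, Cdx2, Dlx5, Dlx6, En1, Eomes, Evx2, Foxe1, Foxl2, Hand2, Hmx3, Irx1, Nkx2-1, Nkx6-2, Olig1, Olig2, Pax6, Pitx1, Ptf1a, Six2, Sox21, Tbx1, Tlx3, Zic1 and Zic4, patterning genes of neural, limb, gut and germ layer fates. H3K9me3 covered 95.1% of Hmx3 and 77.1% of Nkx2-1. Irx3 and Dlx2 had it together with H3K4me3, on 100% and 86.4% of the locus, and stood at 1.62 and 1.80 FPKM. Other factors had H3K27me3, which covered 93.6% of Pitx3, 68.9% of Sox10 and 64.3% of Tbx4. Of the 26 with H3K9me3 alone, 11 had an H3K27me3 peak within 10000 bp of the locus. Such a peak lay near 4 of 16 factors with H3K4me3 alone, 4 of 10 with H3K4me3 and H3K9me3 and 3 of 14 with no mark. The share over all genes is not given here, so the count of 11 is a description only. The factors with the highest RNA were Pax2 (26.0 FPKM), Nkx2-3 (15.8) and Nr2f2 (8.81), with H3K4me3 alone, and Tfap2a, whose bounds of 0 to 15.6 leave its 6.46 FPKM undetermined. Under the alternative overlap rules and peak sets the share with H3K9me3 alone lay between 23.7% and 26.8%.

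Pluripotency genes were likewise spread over the marks. Of 17 members 9 (52.9%) had no mark, against 26% of all genes, and 5 (29.4%) had H3K9me3, against 15.4%. Among those 5, H3K9me3 covered most of Klf2 (92.7%), Utf1 (84.2%) and Sox2 (65.9%). Klf2 also had H3K4me3 on 29.4% of its locus and stood at 0.864 FPKM. H3K27me3 covered 25.9% of Pou5f1. Klf4 stood at 10.0 FPKM with H3K4me3 alone, and 15 of 17 (88.2%) had no assembled locus, against 42.0% of all genes.

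The 27 Hox genes analysed were spread over all 8 combinations, with 11 (40.7%) under H3K4me3 alone, near the 43.4% of all genes. Only 12 of the 27 had the same combination in the miR-93-5p lists, against 81.4% of all genes. Among them Hoxa4, Hoxa5, Hoxa6 and Hoxa7 had H3K4me3 alone, Hoxa10 had H3K4me3 with H3K9me3 and 14.7 FPKM, Hoxa11 had H3K9me3 alone and Hoxa13 all 3 marks. H3K9me3 also covered 26.8% of Hoxc13 and 30.4% of Hoxd13, and 50.8% of Hoxc12 beside H3K27me3, and these 3 had no assembled locus. Hoxb9, under the second widest H3K4me3 peak, had 8.77 FPKM and 31.6% of its locus under H3K27me3. These genes were named by their cluster after their values were seen.

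Imprinted genes carried H3K9me3 in 17 of 35 members (48.6%), against 15.4% of all genes. H3K9me3 covered 100% of Nnat and of Nap1l5, 85.9% of Cdkn1c and 29.0% of Mest, and none of the 4 had a matched locus. Peg3 stood at 83.1 FPKM with H3K4me3 on 13.7% and H3K9me3 on 11.7% of the locus, and Grb10 at 32.5 FPKM with 2.60% and 14.7%. Copg2 (26.1) and Mcts2 (25.7) had H3K4me3 alone. Slc22a3 had H3K27me3 on 67.4% and H3K9me3 on 2.71%. The lists do not separate the parental copies.

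Many genes with no mark belonged to large tissue-specific families. Of 842 olfactory receptor genes 807 (95.8%) had no mark, and 33 had H3K27me3 alone. No mark was also found at 183 of 184 vomeronasal receptors, 49 of 55 defensins, 22 of 24 clustered protocadherins, 56 of 75 cytochrome P450 genes and 44 of 58 serpins. It was found at 75 of 79 genes of a hair and skin family, in which the cornified envelope gene Sprr1a was counted with keratin-associated genes. Over all genes the share was 26%. On chromosome X 54.1% of genes had no mark and 5.56% had H3K27me3, while on the autosomes the shares ran from 15.8% to 39.7% and from 10.8% to 28.4%. H3K9me3 was on 3.31% of X genes and on 7.78% to 24.7% of autosomal genes. Collagens and potassium channels differed from these families, with H3K27me3 in 22 of 43 (51.2%) and 38 of 79 (48.1%).

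**Figure D3:**
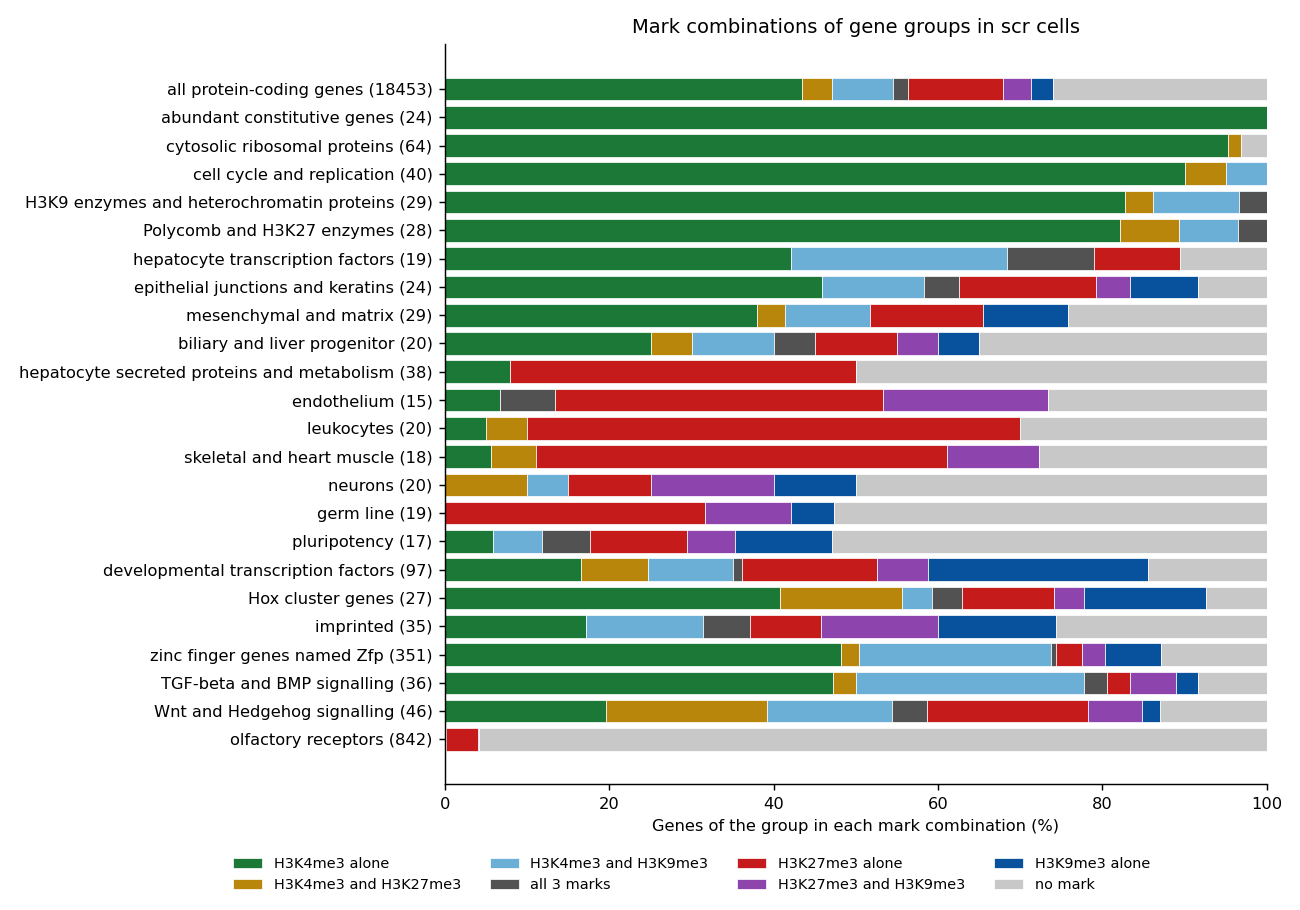
Each bar is a gene list or family, with the number of genes analysed in brackets, split by the share (%) of its genes in each scr combination; the top bar is all 18453 genes. The dark blue stretch of H3K9me3 alone is 26.8% of the developmental transcription factors and 2.69% of all genes, and the grey stretch of no mark is 95.8% of the olfactory receptors.

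Promoter sequence, which the grouping did not use, was richer in CpG in the combinations with H3K4me3. On the 15 chromosomes where the RefSeq table held at least 80% of the genes, 12137 of 14331 genes (84.7%) had a promoter of 300 bases. The median ratio of observed to expected CpG was 0.794 with H3K4me3 alone (quartiles 0.633 to 0.929) and 0.788 with H3K4me3 and H3K9me3. It was 0.711 with all 3 marks, 0.662 with H3K4me3 and H3K27me3, 0.572 with H3K27me3 and H3K9me3, 0.327 with H3K27me3 alone and 0.193 with no mark. A ratio of 0.6 or more was found in 78.2% of promoters with H3K4me3 alone, 23.6% with H3K27me3 alone, 10.8% with no mark and 51.1% of all. For H3K9me3 alone 79.7% of the genes had a sequence, under the 80% needed, so its value is void.

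The letters TATAAA on either strand were in 24.8% of promoters with no mark, 13.2% with H3K27me3 alone and 6.35% with H3K4me3 alone, and in 12.3% of all promoters of that length. The letters GGGCGG on either strand, which hold a CpG, were in 67.6% with H3K4me3 alone, 56.4% with H3K4me3 and H3K27me3, 36.3% with H3K27me3 alone, 18.5% with no mark and 49.4% of all. CCAAT was in 40.3% with H3K4me3 alone, 40.2% with no mark and 38.6% of all. CACGTG was in 10.9% with H3K4me3 alone, 4.63% with no mark and 8.41% of all. Among promoters with a ratio of 0.6 or more, 66.6% had H3K4me3 alone and 5.73% no mark, and within this CpG-rich set the matched share was still 93.3% with H3K4me3 alone, 42.7% with H3K4me3 and H3K27me3 and 4.55% with H3K27me3 alone.

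**Figure D4:**
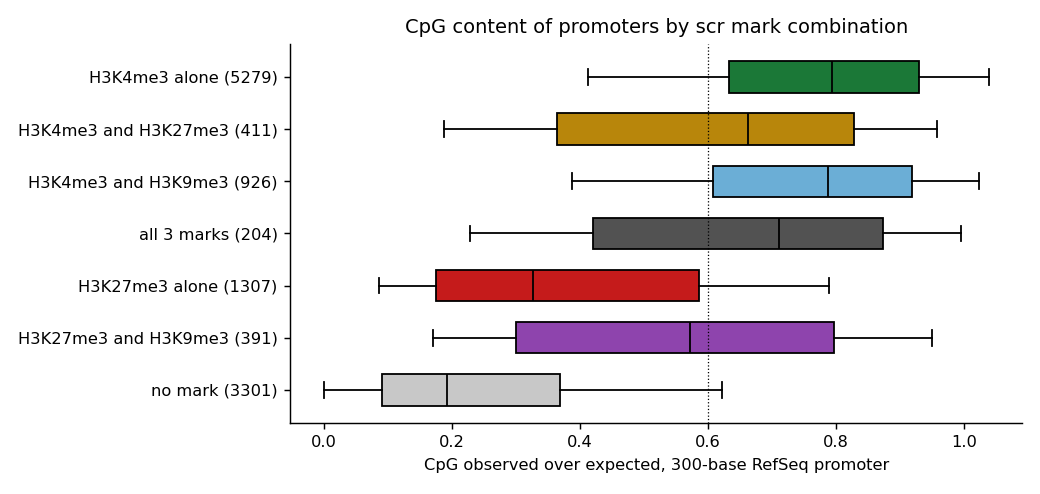
Ratio of observed to expected CpG in 300-base RefSeq promoters, by scr mark combination, with the number of promoters in brackets. Boxes are quartiles with the median, whiskers the 10th and 90th percentiles, and the dotted line marks 0.6; the median runs from 0.794 with H3K4me3 alone to 0.193 with no mark.

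The miR-93-5p peak lists, which did not enter the grouping, gave 81.4% of genes the same combination. It was 91.7% for H3K4me3 alone, 84.8% for no mark and 79.0% for H3K4me3 with H3K9me3. The share was lower for the combinations with H3K27me3: 59.95% for H3K27me3 alone, where 482 of 2125 genes had no mark in the miR-93-5p list, and 45.1% for H3K4me3 with H3K27me3, where 179 of 672 had H3K4me3 alone. With an overlap of at least 500 bp these shares were 50.5% and 34.7%. H3K4me3 was present again in 91.8% of the latter and H3K27me3 in 66.4%. For H3K9me3 alone 62.9% kept the combination and 81.7% had H3K9me3. The lists differ in ways that move with this: the median H3K27me3 peak was 473 bp wide in miR-93-5p against 1049 bp in scr, and there were 25879 H3K9me3 peaks against 15888. Their part in the result was not tested.

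Among the lists, 40 of 40 cell cycle genes and 64 of 64 ribosomal protein genes kept their combination. Of the 26 developmental factors with H3K9me3 alone, 20 kept it and 22 had H3K9me3 again, in a separate immunoprecipitation of other cells with the same antibody. Of all genes with H3K9me3 alone, 62.9% kept it and 81.7% had H3K9me3 again, the latter near the share of the factors. Of the 16 factors with H3K27me3 alone, 7 kept it and 9 had H3K27me3, against 59.95% and 74.4% of all genes of that combination. Of the leukocyte markers 13 of 20 kept their combination, and of the hepatocyte secreted and metabolic genes 27 of 38, against 81.4% of all genes. Most members of both lists had H3K27me3 alone or no mark, which 59.95% and 84.8% of all such genes kept. These 2 counts therefore do not show lower keeping than in other genes of the same combinations.

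**Figure D5:**
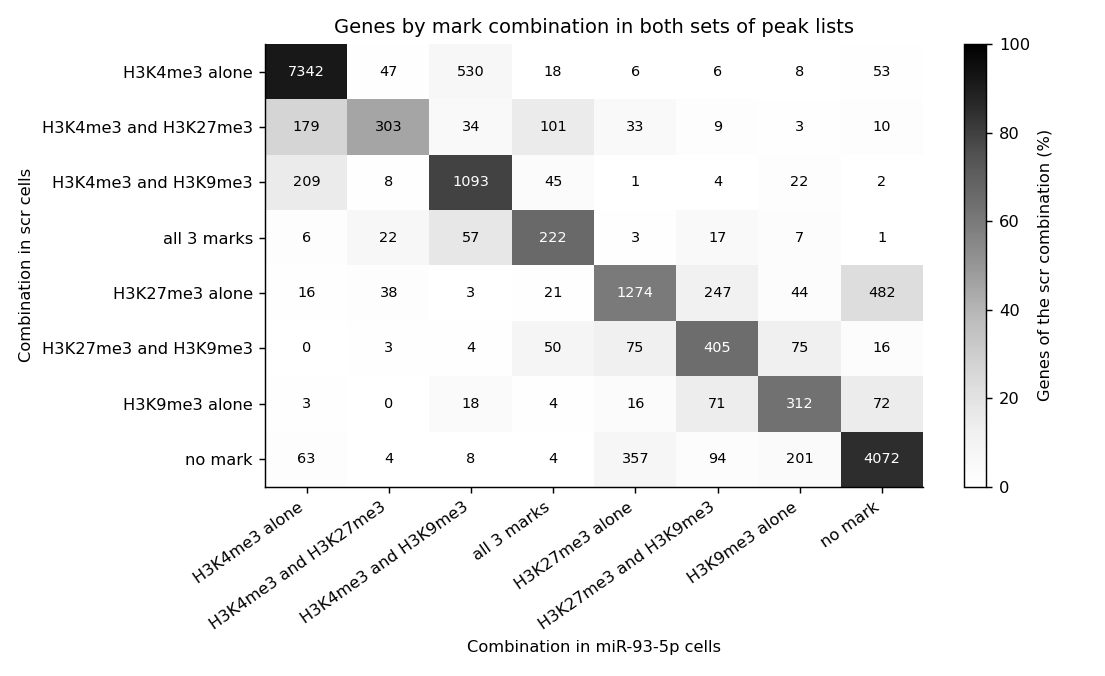
Genes by combination in the scr lists (rows) and in the miR-93-5p lists (columns). Numbers are genes and shading is the share (%) of the scr row; 7342 of 8010 genes with H3K4me3 alone and 303 of 672 with H3K4me3 and H3K27me3 stay on the diagonal.

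RNA of the same genes was set beside the other RNA-seq libraries, which both share the scr library as their control. Ratios are log2 of FPKM plus 1, over genes matched in both libraries with a mean of at least 1 FPKM. In miR-93-5p 3.9% of 8593 genes were at least 2-fold lower and 3.01% higher than in scr, and in the mutant 3.95% of 8604 were lower and 2.62% higher. With H3K4me3 alone in scr the shares lower were 3.35% and 3.43%, and with H3K4me3 and H3K9me3 3.52% and 3.00%. With H3K4me3 and H3K27me3 they were 13.7% (24 of 175 genes) and 17.3% (31 of 179), and with no mark 21.9% (23 of 105) and 16.7% (21 of 126). The shares higher with H3K4me3 and H3K27me3 were 6.29% and 3.91%. These groups also had lower FPKM in scr, and the part of level in these shares was not tested. The scr value both placed genes in the matched set and entered the ratios, so the shares are a description.

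Single genes show the size. In the order scr, miR-93-5p and mutant, Uchl1 had FPKM values of 50.005, 3.34 and 1.99, and Mt2 of 70.2, 9.04 and 12.2. Abcc2, with H3K27me3 alone in scr and in miR-93-5p, stood at 26.2, 3.76 and 5.43. These 3 genes were named for being among the highest of their combinations in scr, and both ratios use that scr value, so lower values elsewhere say nothing further about them. Traf7, with no mark in either list, stood at 152, 86.6 and 113. Tpm3 stood at 205, 162 and 174 and kept H3K4me3 with H3K27me3.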

How the data were processed

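ChIP-seq for H3K4me3, H3K27me3 and H3K9me3 and RNA-seq of scr cells were used. The authors deposited a list of peaks with a score for each mark; the scores start at 50. The RNA-seq values are FPKM per assembled locus with lower and upper bounds, per the file headers; each library was assembled alone, so model length enters FPKM, and read depth is not given in these files. Bowtie, MACS, CASAVA 1.4, TopHat2, Cufflinks, Cuffdiff and mm9 are named without settings or roles, per the submitters' processing notes. Whether input entered peak calling is not given in the sources used here.

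Gene positions are 35640 mm9 loci that the pulldown tables list at an FPKM of 0, of which 31043 had a symbol in the given tables. Biotypes and promoters came from GRCm38.p6 tables by symbol. Overlaps and matches used pandas 2.3.3 and numpy 2.4.6 under Python 3.11.15; matplotlib 3.10.9 drew the figures. Both steps were tested on simulated data. Alternatives for the overlap rule, locus end window, peak score, locus set, match and FPKM minimum were computed. With 1 library per group no test was run, and nothing says whether cultures were separate.

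Members and gene lists were chosen with earlier results of these data known. Named genes were 27 identity genes, the 5 highest per combination, up to 4 per list with the highest FPKM, H3K27me3 share or H3K9me3 share, and genes under the 3 highest and 3 widest peaks per mark; others are marked as chosen after their values were seen. List members without a single protein-coding locus, and a family pattern for histone genes that matched no symbol, were not analysed here. Some genes that this rule names are not reported here.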

Additional observations from a re-analysis of the deposited data

How the results depend on the processing

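Values of the 8 combinations are given first, for settings that moved a count by more than 1.5 times or a share or median beyond its 95% counting interval over genes; the cause was not tested. The median H3K4me3 score was 3100, so a cut at the median kept 60.3% of the H3K4me3 peaks and was less strict for this mark. With only the peaks at or above each list's median score, 237 genes had H3K4me3 with H3K27me3 and 784 H3K4me3 with H3K9me3. All 3 marks were then on 64 genes and H3K27me3 with H3K9me3 on 393. Medians were then 17.5 FPKM with H3K4me3 alone, 7.26 with H3K27me3 added, 11.9 with H3K9me3 added, 8.12 with all 3 and 4.63 with no mark. The matched shares were 92.9%, 40.1%, 91.2%, 37.5%, 7.10%, 9.16%, 21.7% and 15.5%, from H3K4me3 alone to no mark in the order of the plot of FPKM, and 83.7% of genes kept their combination in miR-93-5p.

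An overlap of at least 10% of the locus left 3897 genes with H3K4me3 alone, 126 with H3K27me3 added, 110 with H3K9me3 added, 5 with all 3, 63 with H3K27me3 and H3K9me3, 319 with H3K9me3 alone and 11945 with no mark. Medians were 24.0, 2.95 and 14.5 FPKM in the first 3, 6.29 with H3K9me3 alone and 11.1 with no mark. The matched share was 78.2% with H3K4me3 and H3K9me3, 5.58% with H3K27me3 alone, 29.8% with H3K9me3 alone and 44.8% with no mark, and 0 in both groups with H3K27me3 and H3K9me3 together, which then gave no median.

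Using only stretches within 1000 bp of the locus ends, 267 genes had H3K4me3 with H3K9me3, 34 all 3 marks and 150 H3K27me3 with H3K9me3. Medians were 15.7 FPKM with H3K4me3 alone, 5.95 with H3K27me3 added, 9.23 with H3K9me3 added, 1.25 with all 3, 2.52 with H3K27me3 alone, 6.37 with H3K9me3 alone and 4.13 with no mark. The matched shares were 89.997%, 48.8%, 79.0%, 38.2%, 4.53% and, with no mark, 7.52%. Adding 1000 bp at each end gave 90.4% with H3K4me3 alone, and 42.8% with a median of 6.08 FPKM with H3K27me3 added.

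All listed gene loci gave 876 with H3K9me3 alone and 18418 with no mark. The matched shares were then 80.2% with H3K4me3 alone, 29.9% with H3K27me3 added, 82.6% with H3K9me3 added, 1.98% with H3K27me3 alone, 4.11% with H3K9me3 alone and 1.81% with no mark. A match at 0.9 of the joint length gave 74.9%, 21.3%, 77.2%, 14.0%, 1.27%, 2.82% with H3K9me3 alone and 2.48% with no mark, and a median of 2.40 FPKM with H3K27me3 alone. Counting any assembled locus gave 97.5%, 60.3%, 95.7%, 60.9%, 8.19%, 9.87%, 19.8% and 12.9%. With no mark, the locus sharing most bases gave a median of 3.41 FPKM and a minimum of 1 FPKM gave 3.33. Counting genes without a locus at 0 gave 15.9 FPKM with H3K4me3 alone and 0 in every other combination except H3K4me3 with H3K9me3.

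An overlap of at least 500 bp moved none of the counts, medians and matched shares of the 8 combinations, but the kept share in miR-93-5p was then 34.7% with H3K4me3 and H3K27me3, 59.4% with all 3 marks, 50.5% with H3K27me3 alone, 69.3% with H3K9me3 alone and 88.9% with no mark. With peaks at or above the median score the kept share was 93.8% with H3K4me3 alone, 40.9% with H3K27me3 added, 57.6% with H3K27me3 alone, 60.1% with H3K27me3 and H3K9me3 and 68.7% with H3K9me3 alone. Among the lists, the share of Zfp genes with H3K4me3 and H3K9me3 was 17.4% with those peaks, 5.70% at an overlap of 10% and 14.0% at the ends, and with H3K9me3 alone 17.1% at 10%. Cell cycle genes with H3K4me3 alone were 67.5% at 10% and 97.5% at the ends, olfactory receptors with no mark 97.3% with those peaks, and the Wnt and TGF-beta shares stand beside their results. No paired analysis was possible because each group has 1 library and no result comes from a test.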
